A study of Homo sapiens with 15 samples.

Results

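SF3B4 and U2AF2 both act when the spliceosome reads the 3' end of an intron, and the choice of poly(A) site was compared directly between HEK293T cells depleted of one or of the other. HEK293T is a transformed human embryonic kidney cell line. The comparison set 2 libraries of cells with a short hairpin RNA against SF3B4 (shSF3B4) beside 2 libraries of cells with one against U2AF2 (shU2AF2), and took every gene with a value in all 4 libraries, which were 12091 of the 13056 genes in the deposited table. The measurement was PDUI, an index of distal site usage between 0 and 1 that estimates which share of a gene's transcripts end at its far poly(A) site, where 1 stands for distal use alone. Another 11 libraries of the same line served as reference: 3 with a control hairpin (shControl, genotype WT) and 2 each with a hairpin against HDAC1, PABPN1, PCBP2 or ZNF384. The labels give no time after knockdown, no hairpin sequence and no number of hairpins per gene, and do not say whether replicates came from separate cultures, so p-values measure only the spread between these libraries, which may be technical. PDUI holds no expression level, so neither the depth of the knockdowns nor markers of the cell line could be checked here.

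In splicing, U2AF2 (U2AF65) binds the polypyrimidine tract in front of the 3' splice site and helps to bring the U2 snRNP to the branch point. SF3B4 (SF3b49) is a subunit of the SF3b complex within that same U2 snRNP and contacts the RNA near the branch point. The last intron of a gene is spliced in contact with the cleavage and polyadenylation machinery, and both U2AF2 and the SF3b complex are known to touch subunits of it. Cleavage is directed by a hexamer upstream of the cut, most often AATAAA and next most often ATTAAA in the DNA spelling. Many genes carry several such signals in the last exon, so that transcripts differ in the length of their 3' untranslated region.

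The knockdowns differed in 497 genes, 4.11% of those tested (limma, adjusted p under 0.05 after Benjamini-Hochberg over the 12091 genes). Distal use was higher in shU2AF2 in 315 genes (2.61%) and higher in shSF3B4 in 182 (1.51%). With every library centred on its median, the split was 141 against 47. Centring moved the difference of each gene by −0.005, so a call given below as lost with libraries centred had kept its size to within that amount. The difference was at least 0.1 in 319 of the genes (2.64%), 206 higher in shU2AF2 and 113 higher in shSF3B4. In all 497 called genes the pair of libraries of one knockdown lay wholly above the pair of the other, which held for 38.5% of all tested genes. The calls draw on the spread pooled over 7 groups: a fit of the 4 libraries alone called no gene in limma, with a smallest adjusted p of 0.0817 and 1867 genes at an unadjusted p under 0.05. Without U2AF2 replicate 2 the counts were 200 higher in shU2AF2 and 63 higher in shSF3B4, and the count fell to 275 without SF3B4 replicate 1 and to 318 without U2AF2 replicate 1.

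Averages over genes were close. Mean PDUI over the 11353 genes with a value in all 15 libraries was 0.562 and 0.570 in shSF3B4 and 0.571 and 0.562 in shU2AF2, so the pairs overlapped. The difference of the group means was −0.000704, and an exact two-sided permutation test of it (p = 0.667) can decide nothing, since 6 splits allow no p below 0.333. The called genes lay on both sides of equal use, as the plot of the 2 knockdowns against each other shows.

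**Figure D1:**
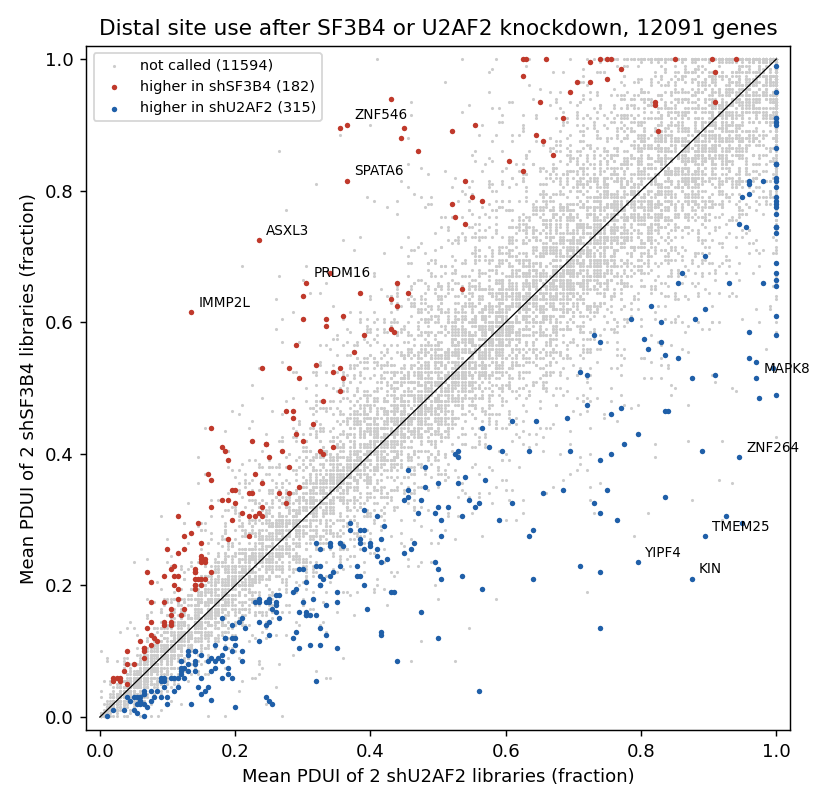
Each point is 1 of 12091 genes, placed by its mean PDUI (fraction) over 2 shU2AF2 libraries on the horizontal axis and over 2 shSF3B4 libraries on the vertical axis; the line marks equal use. Red points are the 182 genes called higher in shSF3B4, blue points the 315 called higher in shU2AF2, and grey points were not called.

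The annotated distal ends of 8 of the genes with large differences are printed here. They were drawn from the genes in which AATAAA or ATTAAA was found near that end. Whether these ends are the distal sites that the authors measured is not given in the table. Each is a window of 30 bases from the last exon of the transcript that the table names, 5' to 3' on the transcript's own strand, taken from GENCODE release 29 (GRCh38), with the poly(A) hexamer in capitals. The first 4 were used more in shSF3B4 and the last 4 more in shU2AF2.
ZNF546: caaatatacttcAATAAAtatccttgtctg
ASXL3: tattctggagaaAATAAAgaaattaaacat
PRDM16: agattgatatgcAATAAAtctgtgtgcttt
LNX2: attcaggatggaAATAAAagtcatcctttc
KIN: actttattttgaAATAAAgtctaagattta
YIPF4: aacactaaaattAATAAAttgtgtaaattc
MAPK8: tataatattttaAATAAAaaagaaaaaagt
ZNF264: agataacttgtgATTAAAgagtatgttatt
The windows lie at chr19:40021006-40021035 (plus strand) for ZNF546, chr18:33751162-33751191 (plus) for ASXL3, chr1:3438587-3438616 (plus) for PRDM16 and chr13:27545918-27545947 (minus) for LNX2. Those of the genes used more in shU2AF2 lie at chr10:7750970-7750999 (minus) for KIN, chr2:32316562-32316591 (plus) for YIPF4, chr10:48439313-48439342 (plus) for MAPK8 and chr19:57222813-57222842 (plus) for ZNF264. The version of the transcript in the table equals that of release 29 for MAPK8 and ZNF264, and differs for the other 6, whose ends may have moved. Of these windows, 7 hold AATAAA, and that of ZNF264 holds ATTAAA. That each holds a hexamer was fixed by the choice of genes. Neither hexamer was found near the annotated end of SPATA6, DUSP10, FAM243A, METTL22 or NDUFAF5. These genes, given below, also had large differences, and no window is printed for them.

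Among genes used more distally in shSF3B4, ZNF546 had the largest difference of the protein-coding genes whose last exon overlaps no other gene. ZNF546, a zinc finger gene, stood at 0.90 in both shSF3B4 libraries, at 0.40 and 0.33 in shU2AF2 and at 0.34, 0.29 and 0.36 in shControl. The difference between shSF3B4 and shU2AF2 was 0.535 (SE 0.0674, limma, adjusted p = 0.00291), and the shSF3B4 libraries also lay above all of the other 11 libraries, which reached 0.57. ASXL3, a Polycomb-related gene named in a developmental syndrome, stood at 0.69 and 0.76 in shSF3B4, at 0.25 and 0.22 in shU2AF2 and at 0.31, 0.31 and 0.21 in shControl. Its difference was 0.49 (SE 0.0741, adjusted p = 0.00728), with the shU2AF2 libraries inside the control range. PRDM16, a transcription regulator of brown fat and stem cells, stood at 0.69 and 0.63 in shSF3B4 against 0.37 and 0.24 in shU2AF2. The 3 control libraries held 0.38, 0.37 and 0.37, so the shSF3B4 pair stood high and 1 of the shU2AF2 pair low. In these 3 genes the call held when any 1 of the 4 libraries was left out, with a highest adjusted p of 0.049999, for ASXL3. The last exons have 7377 bases in ZNF546 (chromosome 19, 40013665 to 40021041), 8305 in ASXL3 (chromosome 18, 33742888 to 33751192) and 4945 in PRDM16 (chromosome 1, 3433677 to 3438621).

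In LNX2 the knockdown of U2AF2 stood apart. LNX2, a ubiquitin ligase of the Notch pathway regulator Numb, held 0.95 and 1 in shSF3B4, 0.67 and 0.58 in shU2AF2 and 1, 0.96 and 0.96 in shControl. Its difference was 0.35 (SE 0.0435, adjusted p = 0.00276), and both shU2AF2 libraries lay below all of the other 11, whose lowest was 0.71. On the logit scale the adjusted p of LNX2 was 0.0549. FAM243A, a gene with a single exon, had 1 in both shSF3B4 libraries and 0.62 and 0.63 in shU2AF2, and shControl held 0.85, 0.97 and 1. SPATA6, which acts in the neck of the sperm cell, had 0.88 and 0.75 in shSF3B4 and 0.37 and 0.36 in shU2AF2, beside 0.54, 0.78 and 0.56 in shControl. Here too the shU2AF2 libraries were the low ones. RABL3, a Rab-like GTPase, had 0.83 and 0.97 against 0.63 and 0.48, with the control libraries from 0.63 to 0.77, so that 1 shU2AF2 library equalled the lowest control.

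DUSP10, a phosphatase that inactivates JNK and p38 kinases, held 0.74 and 0.98 in shSF3B4 and 0.43 and 0.51 in shU2AF2, beside 0.45, 0.46 and 0.43 in shControl. TBC1D16, a Rab GTPase-activating protein, held 0.70 and 0.65 against 0.45 and 0.23, with shControl at 0.29, 0.33 and 0.25. In both genes the shSF3B4 pair lay above the control range. Several of these calls were lost when a library was left out. The call of FAM243A was lost without SF3B4 replicate 1 (adjusted p = 0.0521), as was that of TBC1D16 (0.0868). Those of SPATA6, DUSP10 and RABL3 were lost in 3 of the 4 fits that left out a library, with highest adjusted p-values of 0.130, 0.179 and 0.215. All 3 were lost without U2AF2 replicate 2, and SPATA6 and DUSP10 without U2AF2 replicate 1. SPATA6 and RABL3 were also lost without SF3B4 replicate 1, and DUSP10 and RABL3 without SF3B4 replicate 2.

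Among the remaining genes higher in shSF3B4, AC142472.1, a non-coding gene with 1 exon, held 1 and 0.79 in shSF3B4 and 0.33 and 0.38 in shU2AF2, a difference of 0.54. AC024560.4 held 0.97 and 0.82 against 0.46 and 0.44. CASTOR3, whose last exon overlaps STAG3, held 0.88 and 1 against 0.50 and 0.36. All 3 had shU2AF2 near the control values. These were 0.38, 0.54 and 0.36 for AC142472.1, 0.49, 0.45 and 0.65 for AC024560.4 and a single 0.46 for CASTOR3. The 8 other libraries with a value for CASTOR3 ran from 0.46 to 1, with a median of 0.855. Its shSF3B4 pair lay within that range. Leaving out a library kept the call of AC142472.1 in all 4 fits and lost that of CASTOR3 in all 4, with adjusted p-values from 0.0849 to 0.184. On the logit scale AC142472.1 lost its call (adjusted p = 0.0563). The call of AC024560.4 was lost in each fit but that without SF3B4 replicate 2, with a highest adjusted p of 0.0868.

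**Figure D2:**
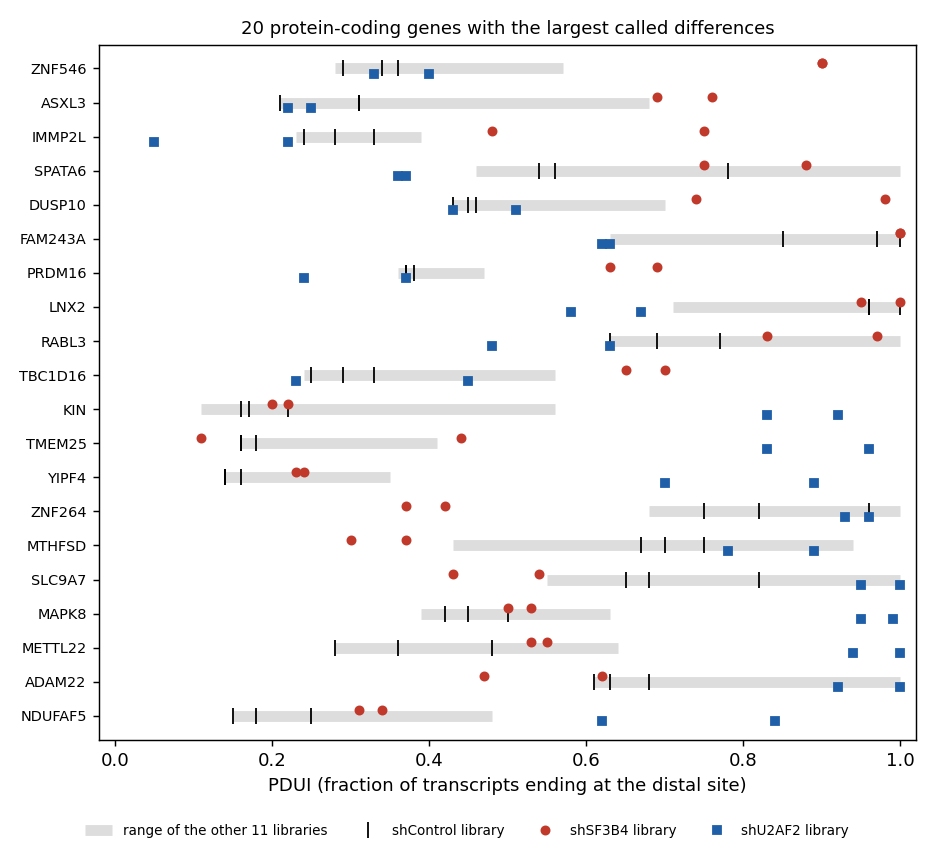
PDUI (fraction) of the 10 protein-coding genes with the largest called difference in each direction, among those whose last exon overlaps no other gene. Each row is 1 gene. Red circles are the 2 shSF3B4 libraries and blue squares the 2 shU2AF2 libraries. Black ticks are the 3 shControl libraries and grey bars the range of all 11 other libraries. In the upper 10 rows red lies right of blue, and in the lower 10 blue lies right of red; in KIN, TMEM25, YIPF4, MAPK8, METTL22 and NDUFAF5 the blue squares lie beyond the grey bar.

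KIN had the largest difference of all called genes, and it was higher in shU2AF2. KIN, a DNA- and RNA-binding zinc finger protein, held 0.83 and 0.92 in shU2AF2, 0.20 and 0.22 in shSF3B4 and 0.17, 0.22 and 0.16 in shControl. The difference, shSF3B4 minus shU2AF2, was −0.665 (SE 0.0699, limma, adjusted p = 0.00103). The shSF3B4 pair lay within the control range, and no other library exceeded 0.56. METTL22, a methyltransferase for which the KIN protein is a known substrate, stood at 0.94 and 1 in shU2AF2, at 0.55 and 0.53 in shSF3B4 and at 0.36, 0.28 and 0.48 in shControl. Its call was lost without U2AF2 replicate 2, SF3B4 replicate 1 or SF3B4 replicate 2 (highest adjusted p = 0.0647), while that of KIN was kept in all 4 such fits. The last exon of KIN spans 5181 bases (chromosome 10, 7750962 to 7756142) and that of METTL22 3547 bases (chromosome 16, 8646108 to 8649654).

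YIPF4, a Golgi membrane protein, held 0.70 and 0.89 in shU2AF2, 0.23 and 0.24 in shSF3B4 and 0.14, 0.16 and 0.14 in shControl, a difference of −0.56 (SE 0.0484, adjusted p = 0.000443). MAPK8, the stress kinase JNK1, held 0.99 and 0.95 in shU2AF2, 0.50 and 0.53 in shSF3B4 and 0.42, 0.50 and 0.45 in shControl, a difference of −0.455 (SE 0.0377, adjusted p = 0.000346). In both, the shU2AF2 libraries lay above all other 13 libraries. NDUFAF5, an assembly factor of respiratory complex I, stood at 0.62 and 0.84 in shU2AF2, at 0.34 and 0.31 in shSF3B4 and at 0.25, 0.18 and 0.15 in shControl. TMEM25, a membrane protein of the immunoglobulin superfamily, stood at 0.96 and 0.83 in shU2AF2 and at 0.11 and 0.44 in shSF3B4, beside 0.18, 0.16 and 0.16 in shControl. Its shSF3B4 libraries lay far apart, 1 below and 1 above the control range, and the call was lost without U2AF2 replicate 1 (adjusted p = 0.0584). ADAM22, a receptor of the secreted protein LGI1, held 1 and 0.92 in shU2AF2 and 0.62 and 0.47 in shSF3B4, beside 0.68, 0.63 and 0.61 in shControl. In ADAM22 the shU2AF2 pair lay within the range of all other 11 libraries, 0.61 to 1, whose median was 0.85. Its call was kept only without SF3B4 replicate 1 of the fits that left out a library (highest adjusted p = 0.0888), and on the logit scale the adjusted p was 0.183. The last exons of YIPF4 (chromosome 2, 32305489 to 32316594) and MAPK8 (chromosome 10, 48434879 to 48439360) have 11106 and 4482 bases.

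In ZNF264 it was the knockdown of SF3B4 that stood apart. ZNF264, a zinc finger gene, held 0.37 and 0.42 in shSF3B4, 0.93 and 0.96 in shU2AF2 and 0.96, 0.75 and 0.82 in shControl. The difference was −0.55 (SE 0.0710, adjusted p = 0.00498), and no library outside shSF3B4 was below 0.68. Its last exon is the longest printed, with 11493 bases on chromosome 19 from 57211354 to 57222846. A like order was seen in AL353708.3, a non-coding gene with 1 exon that overlaps TOR1AIP1 on the other strand: 0.22 and 0.37 in shSF3B4, 1 and 0.90 in shU2AF2, and 1 in all 3 control libraries. Whether the kit kept strand is not given in the sources used here, so its reads and those of TOR1AIP1 cannot be told apart.

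In 89 of the 497 called genes the knockdowns lay on opposite sides of the whole shControl range, with shSF3B4 below and shU2AF2 above in 59 and the reverse in 30. Over all tested genes these counts were 99 and 81. Genes called between the knockdowns had to differ, so the higher share among them carries no test. IMMP2L, a peptidase of the inner mitochondrial membrane, held 0.48 and 0.75 in shSF3B4, 0.05 and 0.22 in shU2AF2 and 0.24, 0.33 and 0.28 in shControl. Both pairs lay outside the range of all other 11 libraries, 0.23 to 0.39. Against shControl alone, neither passed the test (adjusted p = 0.0548 for shSF3B4 and 0.396 for shU2AF2), and the call between the knockdowns was lost without SF3B4 replicate 2 or U2AF2 replicate 1 (highest adjusted p = 0.123).

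The other 7 of the largest genes on opposite sides had shU2AF2 above and shSF3B4 below. NOS1AP, an adaptor of neuronal nitric oxide synthase, held 0.05 and 0.03 in shSF3B4, 0.41 and 0.71 in shU2AF2 and 0.20, 0.12 and 0.14 in shControl. SLC9A7, a sodium-proton exchanger of the Golgi, held 0.43 and 0.54 in shSF3B4, 1 and 0.95 in shU2AF2 and 0.68, 0.82 and 0.65 in shControl. MTHFSD, a protein with an RNA-binding domain, held 0.30 and 0.37 in shSF3B4, 0.78 and 0.89 in shU2AF2 and 0.75, 0.67 and 0.70 in shControl. In SLC9A7 the 2 pairs lay about as far from the controls on either side, and in MTHFSD the shSF3B4 pair lay farther. The calls of SLC9A7 and MTHFSD were lost when any 1 of the 4 libraries was left out (highest adjusted p = 0.172 and 0.125), and that of NOS1AP in each fit but that without U2AF2 replicate 1 (0.0707). Against shControl SLC9A7 passed in neither knockdown, MTHFSD in shSF3B4 alone (adjusted p = 0.039) and NOS1AP in shU2AF2 alone (0.0169). The last exon of NOS1AP overlaps C1orf226 on the same strand.

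The last exons of the remaining 4 overlap other genes. GENCODE calls AL161668.3 and AL391834.1 antisense transcripts and leaves the type of AC117503.4 and AC117503.2 to be settled. AL161668.3, which overlaps METTL17, held 0.20 and 0.24 in shSF3B4, 0.70 and 0.78 in shU2AF2 and 0.42, 0.46 and 0.41 in shControl, a difference of −0.52 (SE 0.0413, adjusted p = 0.000313). It also passed the test against shControl in both knockdowns, with adjusted p = 0.0119 for shSF3B4 and 0.000992 for shU2AF2. AC117503.4, which overlaps ATP6V0A2, held 0.12 and 0.15 against 0.73 and 0.75, and shControl held 0.47, 0.40 and 0.33. In these 2 genes both knockdowns lay outside the range of all other libraries, in opposite directions. AL391834.1, which overlaps DENND4C, held 0.27 and 0.34 against 0.85 and 1, and AC117503.2, which overlaps GTF2H3, held 0.32 and 0.28 against 0.91 and 0.62. Against shControl AL391834.1 passed in neither knockdown, and AC117503.4 and AC117503.2 in shU2AF2 alone (adjusted p = 0.0375 and 0.0417). The calls of AL391834.1 and AC117503.2 were lost in 4 and 3 of the 4 fits that left out a library, for AC117503.2 in each but that without U2AF2 replicate 2 (highest adjusted p = 0.199 and 0.116).

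In 127 of the 497 called genes (25.6%) neither pair lay wholly beyond the range of all other 11 libraries. Over all tested genes this held for 86.3%. Against the same range, 11 called genes had the knockdowns beyond it on opposite sides, shSF3B4 above in 5 and below in 6. Over all 12091 tested genes the counts were the same, 5 (0.0414%) and 6 (0.0496%). A call requires the knockdowns to differ, so this carries no test. Besides IMMP2L, NOS1AP, AL161668.3 and AC117503.4, the 11 include RPL22, ZNF117, RAMAC, HNRNPA0, OPA1, TIMM23B and AC010327.6. The latter were named after their values were seen. RPL22, a protein of the large ribosomal subunit, held 0.33 in both shSF3B4 libraries and 0.18 in both shU2AF2 libraries, and the other libraries held 0.20 to 0.26 (adjusted p = 0.000562). RAMAC, the activating partner of the cap methyltransferase, held 0.59 in both shSF3B4 libraries and 0.43 in both shU2AF2 libraries. OPA1, a GTPase of mitochondrial fusion, had the reverse order, with 0.57 and 0.59 in shSF3B4 and 0.73 in both shU2AF2 libraries. The calls of RAMAC (adjusted p = 0.0166) and OPA1 (0.0341) were lost when any 1 of the 4 libraries was left out (highest 0.0883 and 0.165) and with libraries centred (0.0524 and 0.192). Against shControl neither knockdown was called in either gene. The call of ZNF117 was kept only without U2AF2 replicate 1 (highest 0.0886), and that of AC010327.6 was lost with libraries centred (0.145). RAMAC, TIMM23B and AC010327.6 have last exons that overlap another gene, and TIMM23B has a close paralog in TIMM23, so reads may be shared.

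**Figure D3:**
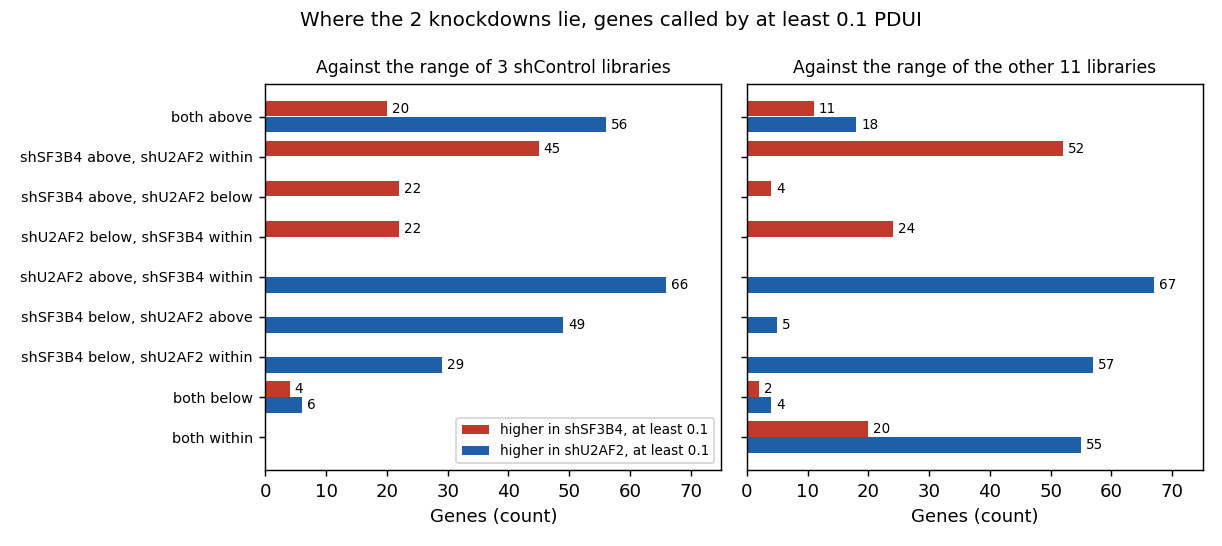
Number of genes called by at least 0.1 PDUI whose 2 libraries of each knockdown lie all above, all below or otherwise within the range of the 3 shControl libraries (left) or of all other 11 libraries (right). Red bars are the 113 genes higher in shSF3B4 and blue bars the 206 higher in shU2AF2; on the left, 22 red and 49 blue genes have the knockdowns on opposite sides.

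Each knockdown was also tested against shControl. Both tests named next share the shControl libraries, and they share the knockdown libraries with the direct contrast, so the counts describe the genes and support nothing. Of 314 genes higher in shU2AF2 than in shSF3B4 with a control test, 230 were called higher in shU2AF2 than in shControl and 3 lower, while shSF3B4 was called lower than shControl in 54 and higher in 48. Of 181 genes higher in shSF3B4, 101 were called higher in shSF3B4 than in shControl and 3 lower, while shU2AF2 was called lower in 38 and higher in 27. The background was 5.58% called for shSF3B4 and 7.64% for shU2AF2 among 11982 genes. VPS53, a subunit of the GARP tether at the Golgi, is a gene in which both stood above shControl by unequal amounts: 1 in both shSF3B4 libraries, 0.72 and 0.60 in shU2AF2, and 0.26, 0.33 and 0.43 in shControl. Its last exon overlaps AC015853.2, and the call between the knockdowns was lost without SF3B4 replicate 1, SF3B4 replicate 2 or U2AF2 replicate 2 (highest adjusted p = 0.0971).

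Genes of the splicing machinery itself were examined as lists, each read beside the 4.11% called among all tested genes, whose median difference was 0 and median absolute difference 0.045. Over the 15 lists the median difference lay between −0.01 and 0.02, and the median absolute difference between 0.01, in oxidative phosphorylation, and 0.055, in cleavage and polyadenylation factors. The share called lay between 3.23% in the latter and 16% in SR proteins, where it stands for 4 genes. Of 32 tested U2 snRNP and 3' splice site factors, none was called higher in shSF3B4, 2 were higher in shU2AF2 and 30 were not called, with a median absolute difference of 0.0175. SUGP1, a partner of SF3B1 at the branch point, held 0.04 and 0.08 in shSF3B4, 0.17 and 0.13 in shU2AF2 and 0.02, 0.01 and 0.03 in shControl. SUGP1 lost its call without SF3B4 replicate 1 or U2AF2 replicate 1 (highest adjusted p = 0.195). The targeted genes were not called: SF3B4 held 0.55 and 0.56 in shSF3B4 and 0.53 in both shU2AF2 libraries (adjusted p = 0.858), and U2AF2 held 0.45 and 0.44 against 0.42 and 0.49 (0.999). PDUI carries no RNA amount, so these values do not check the knockdowns.

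Of 30 factors of the U1 and tri-snRNP particles and the spliceosome core, 2 were higher in shSF3B4 and 1 in shU2AF2. SART1, a tri-snRNP protein, held 0.19 and 0.28 in shSF3B4, 0.50 and 0.49 in shU2AF2 and 0.12, 0.14 and 0.12 in shControl, a difference of −0.26 (SE 0.0272, adjusted p = 0.00102). Both knockdowns lay above all other libraries, shU2AF2 by more. AQR, an intron-binding helicase, held 0.18 and 0.17 in shSF3B4 and 0.09 and 0.10 in shU2AF2, with shControl at 0.09, 0.09 and 0.08. PRPF38B, a protein of the precatalytic spliceosome, held 0.30 and 0.31 against 0.25 and 0.23. With libraries centred, the adjusted p was 0.207 for AQR and 0.212 for PRPF38B, which was also lost in 3 of the 4 fits that left out a library, in each but that without U2AF2 replicate 1 (highest 0.154).

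SR proteins and their relatives, which bind exons and help to define splice sites, had 3 genes higher in shU2AF2 and 1 higher in shSF3B4 of 25 tested. SRSF1 held 0.12 and 0.13 in shSF3B4, 0.33 and 0.34 in shU2AF2 and 0.13 in each control library, a difference of −0.21 (SE 0.0174, adjusted p = 0.000346). Of the 3 groups shU2AF2 alone stood apart, and the last exon overlaps AC015813.2 on the same strand. SREK1, a regulator of splicing with an SR-like domain, held 0.16 in both shSF3B4 libraries, 0.29 and 0.30 in shU2AF2 and 0.30, 0.29 and 0.31 in shControl, a difference of −0.135 (SE 0.0123, adjusted p = 0.000562). Here shSF3B4 alone of the 3 groups stood apart. SRSF10 held 0.25 and 0.26 in shSF3B4, 0.41 and 0.37 in shU2AF2 and 0.51, 0.54 and 0.52 in shControl, so that both knockdowns were below shControl and shSF3B4 by more. PNN, a protein of nuclear speckles, held 0.28 and 0.27 against 0.23 and 0.21, both above the controls at 0.15 to 0.17. The calls of SRSF10 and PNN were lost with libraries centred (adjusted p = 0.0839 and 0.412) and in 3 of the 4 fits that left out a library (highest 0.0992 and 0.155). SRSF10 was kept only without U2AF2 replicate 2 and PNN only without U2AF2 replicate 1.

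**Figure D4:**
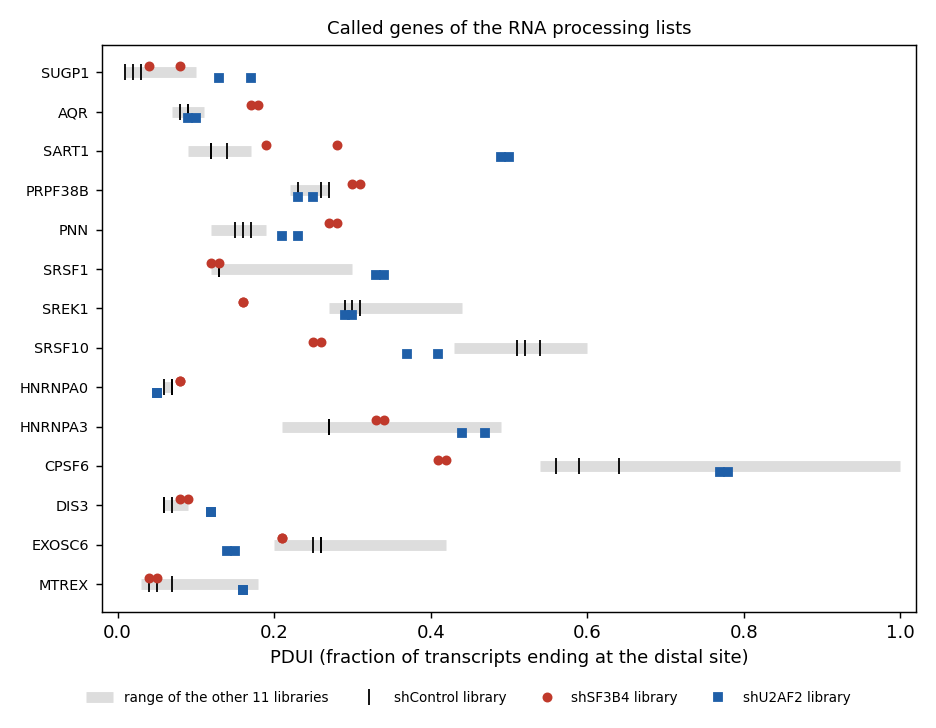
PDUI (fraction) of 14 called genes of 6 lists of RNA processing factors, 1 row a gene; red circles are the 2 shSF3B4 libraries, blue squares the 2 shU2AF2 libraries, black ticks the 3 shControl libraries and grey bars the range of all 11 other libraries. In SRSF1 and SART1 the blue squares lie right of the grey bar, and in SREK1 the red circles lie left of it. In CPSF6 the pairs lie on either side of the black ticks, with the blue squares inside the grey bar.

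CPSF6 was the 1 called gene of 31 tested cleavage and polyadenylation factors. CPSF6 encodes a subunit of cleavage factor I, which favours distal sites, and it held 0.42 and 0.41 in shSF3B4, 0.77 and 0.78 in shU2AF2 and 0.59, 0.64 and 0.56 in shControl. The difference was −0.36 (SE 0.0473, adjusted p = 0.00351) with the controls between the pairs. All other 11 libraries, the controls among them, ran from 0.54 to 1 for CPSF6, with a median of 0.84. The shSF3B4 pair lay below that range, while the shU2AF2 pair lay within it and below the median. The transcript of CPSF6 has its coding end outside the last exon. On the logit scale the adjusted p was 0.344, and the last exon (chromosome 12, 69269512 to 69274358) overlaps the microRNA gene MIR1279. Of 48 hnRNP and KH-domain genes, HNRNPA3, an RNA-binding protein of the hnRNP A family, was higher in shU2AF2, with 0.47 and 0.44 against 0.33 and 0.34 and 0.27 in every control library. All other 11 libraries ran from 0.21 to 0.49 for HNRNPA3, so both pairs lay within their range. HNRNPA0, of the same family, was higher in shSF3B4, with 0.08 in both libraries against 0.05 in both. With libraries centred their adjusted p-values were 0.0507 and 0.766, and HNRNPA0 was lost when any 1 of the 4 libraries was left out (highest 0.0907).

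Of 33 genes of the nuclear exosome, the exon junction complex and mRNA export, 2 were higher in shU2AF2 and 1 in shSF3B4. MTREX, the helicase that feeds RNA to the nuclear exosome, held 0.04 and 0.05 in shSF3B4 and 0.16 in both shU2AF2 libraries, beside 0.04, 0.07 and 0.05 in shControl. Its last exon overlaps PLPP1, and that of DIS3, given below, overlaps BORA. All other 11 libraries ran from 0.03 to 0.18 for MTREX, with a median of 0.1, so both pairs lay within their range. EXOSC6, a ring subunit of the exosome, held 0.21 in both shSF3B4 libraries and 0.15 and 0.14 in shU2AF2, both below the controls at 0.26, 0.26 and 0.25. DIS3, a nuclease of the exosome, held 0.08 and 0.09 in shSF3B4 against 0.12 in both shU2AF2 libraries, and was lost in all 4 fits that left out a library (highest adjusted p = 0.2002). EXOSC6 was lost without U2AF2 replicate 2 (0.0542) and with libraries centred (0.392).

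Vesicle traffic genes had 6 genes higher in shU2AF2 and 2 higher in shSF3B4 of 74 tested, a share of 10.8%. SEC22B, a SNARE between the endoplasmic reticulum and the Golgi, held 0.59 and 0.53 in shU2AF2, 0.30 and 0.35 in shSF3B4 and 0.27, 0.30 and 0.25 in shControl, a difference of −0.235 (SE 0.0253, adjusted p = 0.00123). SNX6, a sorting nexin of the retromer pathway, held 0.86 in both against 0.66 and 0.69, where both exceeded the controls at 0.63, 0.61 and 0.57. VPS41, of the HOPS tether, held 0.62 and 0.65 against 0.44 and 0.37, and VAMP4, a SNARE of the trans-Golgi, 0.74 and 0.70 against 0.47 and 0.48. RAB2A and STX7 were the others higher in shU2AF2, by less than 0.1. RAB31, an endosomal Rab GTPase, joined VPS53 on the other side, with 0.93 and 1 in shSF3B4 and 0.74 and 0.71 in shU2AF2. Of these 8 genes SEC22B alone kept its call in all 4 fits that left out a library. The highest adjusted p in those fits was 0.102 for SNX6, 0.102 for VPS41, 0.153 for VAMP4, 0.204 for RAB2A, 0.136 for STX7 and 0.142 for RAB31. Each lost its call in 3 or 4 of them: RAB2A was kept only without U2AF2 replicate 1, VPS41 only without SF3B4 replicate 1 and STX7 only without SF3B4 replicate 2.

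In the list of ubiquitin ligases and E2 enzymes, 5 of 63 tested genes were called, all of them higher in shSF3B4. CUL4B, a cullin scaffold, held 0.94 and 0.92 in shSF3B4 against 0.82 in both shU2AF2 libraries, and shControl held 0.86, 0.82 and 0.83. Here shU2AF2 stood near the controls. CUL5, another cullin, held 0.69 and 0.58 against 0.42 and 0.44, with shU2AF2 the lower. SKP1, the adaptor of SCF ligases, differed by 0.01, a single step of the table, and LNX2 is given above. The last exons of CUL5 and SKP1 overlap AP002433.1 and TCF7. With libraries centred the adjusted p was 0.334 for CUL4B, 0.112 for CUL5 and 0.982 for SKP1, and these 3 were also lost in 3 or 4 of the fits that left out a library (highest 0.0812, 0.242 and 0.162). CUL4B was kept only without SF3B4 replicate 2, as was CUL5, and SKP1 in none.

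Of 52 genes of oxidative phosphorylation, 4 were called, all higher in shU2AF2. ATP5F1D, a subunit of ATP synthase, held 0.75 and 0.73 in shU2AF2, 0.58 and 0.56 in shSF3B4 and 0.41, 0.46 and 0.47 in shControl, a difference of −0.17 (SE 0.0263, adjusted p = 0.00816). Both knockdowns exceeded the controls. NDUFV3 of complex I held 0.21 and 0.22 against 0.13 and 0.14, UQCR11 of complex III 0.37 and 0.35 against 0.24 and 0.28, and CYCS, cytochrome c, 0.09 in both against 0.06 in both. All other 11 libraries reached 0.33 for NDUFV3 and 0.15 for CYCS, above the shU2AF2 pairs. With libraries centred NDUFV3, UQCR11 and CYCS were not called (adjusted p = 0.201, 0.168 and 0.554). They were also lost without SF3B4 replicate 1 or U2AF2 replicate 2, UQCR11 and CYCS without U2AF2 replicate 1, and CYCS without SF3B4 replicate 2, with highest adjusted p-values of 0.0800, 0.181 and 0.172.

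The lists of HDAC complexes, microRNA factors and the cell cycle held 3, 2 and 2 calls, all higher in shU2AF2, as were 315 of the 497 calls over all genes. The first had 36 tested genes. HDAC1, a histone deacetylase, held 1 in both shU2AF2 libraries, 0.72 and 0.75 in shSF3B4 and 0.67, 0.84 and 0.82 in shControl. HDAC2, its paralog, held 0.05 in both shU2AF2 libraries and 0.01 in every shSF3B4 and control library, and CHD3, a helicase of the NuRD complex, 0.45 and 0.46 against 0.35 and 0.34. HDAC1 and CHD3 were lost in all 4 fits that left out a library (highest adjusted p = 0.162 and 0.108). HDAC2 kept its call in those fits and lost it with libraries centred, at a difference of −0.045 (adjusted p = 0.451). Of 26 microRNA and deadenylation genes, AGO1, an Argonaute protein, held 1 in both shU2AF2 libraries against 0.80 and 0.78. All other 11 libraries ran from 0.63 to 1 for AGO1, with a median of 0.97, so both pairs lay within their range. The last exon of AGO1 overlaps AL139286.2. CNOT11, of the CCR4-NOT complex, held 0.97 and 0.95 in shU2AF2 against 0.82 and 0.81 in shSF3B4. Both were lost in all 4 such fits (highest 0.101 and 0.192). Of 51 cell cycle genes, CDT1, a licensing factor of replication, held 0.56 and 0.50 in shU2AF2, 0.39 and 0.42 in shSF3B4 and 0.24 in all control libraries, so that both knockdowns were above shControl. MCM2, a subunit of the replicative helicase, held 0.08 in both libraries against 0.03 in both, and its adjusted p was 0.316 with libraries centred. The highest of all other 11 libraries was also 0.08 for MCM2.

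Genes of neurodevelopmental disorders were called in both directions, 3 each of 59 tested. SMC1A, a cohesin subunit, held 0.21 in both shU2AF2 libraries, 0.10 in both shSF3B4 libraries and 0.10, 0.11 and 0.09 in shControl, a difference of −0.11 (SE 0.00611, adjusted p = 2.8e-05). NIPBL, the loader of cohesin, differed the other way, with 0.24 and 0.23 in shSF3B4 and 0.16 and 0.15 in shU2AF2 beside 0.18, 0.21 and 0.21 in shControl. NSD1, a histone methyltransferase, held 0.80 and 0.83 in shU2AF2 against 0.62 and 0.63. In GIGYF2, a translational repressor whose last exon overlaps SNORC, shSF3B4 held 0.14 and 0.17, below both shU2AF2 at 0.29 and 0.33 and shControl at 0.36, 0.37 and 0.30. ASXL3, of the same list, is given above. NIPBL was lost without SF3B4 replicate 1 or U2AF2 replicate 2, NSD1 in each fit but that without U2AF2 replicate 1 and GIGYF2 in all 4 (highest adjusted p = 0.0566, 0.0846 and 0.208). With libraries centred, NIPBL and GIGYF2 were not called (0.0869 and 0.133).

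Of 43 neurodegeneration genes, HTT was higher in shSF3B4 and VCP and TMEM106B in shU2AF2. TMEM106B, a lysosomal membrane protein, held 0.16 and 0.14 in shU2AF2, 0.03 and 0.04 in shSF3B4 and 0.04, 0.04 and 0.05 in shControl, a difference of −0.115 (SE 0.0107, adjusted p = 0.000577). All other 11 libraries ran from 0.04 to 0.14 for TMEM106B, with a median of 0.08, and 1 shU2AF2 library equalled the highest. HTT, the huntingtin gene, held 0.32 and 0.29 in shSF3B4 and 0.22 in both shU2AF2 libraries, both above shControl at 0.17, 0.18 and 0.19. VCP, an ATPase of protein extraction, held 0.40 and 0.37 in shU2AF2 and 0.28 and 0.29 in shSF3B4. The call of VCP was lost in all 4 fits that left out a library (highest adjusted p = 0.145), and that of HTT with libraries centred (0.160).

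In the list of genes reported to choose among poly(A) sites in the 3' UTR, 4 of 51 were higher in shSF3B4 and 2 in shU2AF2. VEGFA, the vascular growth factor, held 0.56 and 0.55 in shSF3B4 against 0.38 and 0.37 in shU2AF2, with shControl at 0.44, 0.53 and 0.50 between. SLC25A3, the mitochondrial phosphate carrier, held 0.06 in both libraries against 0.02 in both. TMEM106B, given above, also stands in this list. VEGFA was lost in all 4 fits that left out a library (highest adjusted p = 0.154), and with libraries centred the adjusted p of SLC25A3 was 0.604.

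Length of the last exon and the level of distal use went with the share of genes called. The median last exon had 2715 bases among 487 annotated called genes and 1400.5 bases among 11798 annotated tested genes. The share called was 1.93% for last exons under 500 bases and 10.5% for those of 4000 bases and over. For differences of at least 0.1 these shares were 1.26% and 6.52%. The residual spread between libraries differed over the same classes, with a median SD of 0.0508 PDUI in the shortest and 0.0367 in the longest. Its part in the shares was not tested. Median shControl PDUI was 0.22 in called genes and 0.573 in all tested genes. The residual SD was 0.00878 in genes with a mean PDUI under 0.1, of which 9.76% were called, and 0.081 in genes from 0.6 to 0.8, of which 1.44% were called. Counting only differences of at least 0.1, the highest share was 6.04%, in genes from 0.2 to 0.4.

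**Figure D5:**
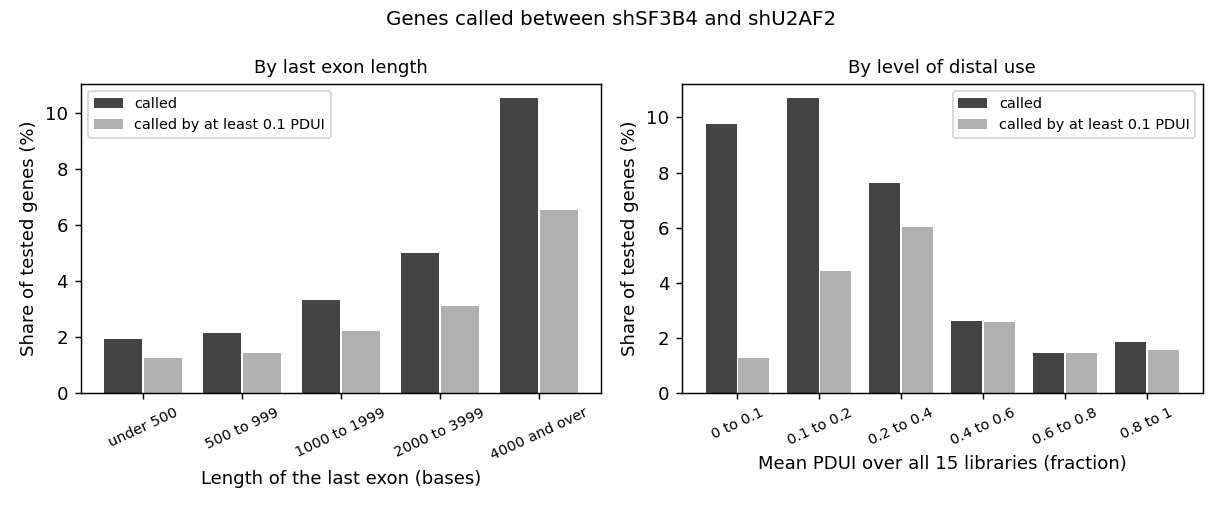
Share of tested genes (%) called between shSF3B4 and shU2AF2, by length of the last exon in bases (left) and by mean PDUI over all 15 libraries (right); dark bars count all called genes and light bars those that differ by at least 0.1 PDUI. The dark bars rise from 1.93% to 10.5% with length, and on the right they are highest below 0.4.

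Some other features of the called genes, with both directions pooled, were near those of all tested genes. An exon of another gene overlapped the last exon in 29.4% of called and 25.7% of tested genes, and 88.9% and 89.2% were protein-coding. By direction, overlap was 24.6% in genes higher in shSF3B4 and 32.1% in those higher in shU2AF2. In the same order, 93.3% and 86.4% were protein-coding. The count of AATAAA in the last exon differed, with a median of 2 in called genes and 1 in tested genes. Median last exon lengths were 2715 and 1400.5 bases in the same order. In the last 50 bases of the transcript, searched on its own strand, AATAAA was found in 57.7% of called and 61.0% of tested transcripts. ATTAAA without AATAAA was found in 13.96% and 14.17%, and neither in 28.3% and 24.8%. No test of these shares was made. A match describes letters at the annotated end and not a site in use.

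The share of genes called was higher for larger differences. Of 70 tested genes that differed by 0.4 or more, 45.7% were called, and of 6409 that differed by less than 0.05, 0.874%. Of the 178 called genes that differed by less than 0.1, 2 were still called with libraries centred on their medians. Of these 178, 56 differed by less than 0.05, where the table has steps of 0.01. Of all 497 called genes, 80 were called under every alternative that tested them but the fit of 4 libraries, 64 of them higher in shU2AF2. Of the named genes they include KIN, YIPF4, ZNF264, MAPK8, NDUFAF5, SRSF1, SREK1, SART1, SEC22B, ATP5F1D, CDT1, MTREX, SMC1A, TMEM106B, ZNF546, ASXL3 and PRDM16.

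Across the series, libraries lacked a value for 1.37% to 4.49% of genes. Mean PDUI ranged from 0.522, in shControl replicate 1, to 0.585. Without that control library 505 genes were called between shSF3B4 and shU2AF2, 432 of them among the 497. The same fit called 9 to 1209 genes between other pairs of knockdowns, 9 between shPCBP2 and shZNF384 and 1209 between shPABPN1 and shSF3B4.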

How the data were processed

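Oligo(dT)-selected RNA of HEK293T cells was sequenced from 15 libraries, per the labels' protocols, which name both nuclear and total RNA. Control library names end in nuc, unlike the others. If this marks another preparation, it cannot be told apart from the control hairpin, and the direct contrast of the knockdowns uses the control libraries for the pooled spread alone. The deposited values are PDUI as a fraction from 0.001 to 1 in steps of 0.01, computed by the authors on hg38 (build per the submitters' processing notes). Which program called the sites, and on which annotation, is not given in the sources used here. Read counts are not in the table, so depth is unknown and no interval from it is given.

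The columns of shSF3B4 were assigned to the group, because titles and library names number its replicates differently. Replicate numbers in the text are those of the columns. Values entered limma 3.58.1 (R 4.3.3) untransformed, with all 15 libraries in 1 fit, 1 mean per group, and eBayes with a trend (8 residual degrees of freedom, prior 1.07). Genes with values in the 4 libraries were tested, two-sided, with Benjamini-Hochberg adjustment. In simulated data the fit called 6% of 50 genes changed by 0.1 PDUI, 28% at 0.2, 52% at 0.3 and 70% at 0.4. Of 11891 unchanged genes it called 0.042%. The changed genes were all of middle PDUI. A gene not called may thus still differ. Last exons, overlaps and end windows come from GENCODE release 29, which held 97.2% of the transcripts, 54.9% in the same version. The transcripts of MCM2, HDAC1, MTHFSD and CASTOR3 have no coding sequence annotated there. Those of CPSF6, SUGP1, HNRNPA3, UQCR11, CUL5, OPA1 and TIMM23B have their coding end outside the last exon.

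Named genes were called genes whose groups do not overlap: the 10 largest differences per direction among protein-coding genes without overlap, the 3 largest among the rest, up to 3 members per gene list by smallest p, up to 8 on opposite sides of shControl, and both targeted genes. Other called members of the lists are named to account for them, and some called members that the counts include are not reported here. The members and the 15 gene lists were chosen with earlier results of these data known. The alternatives were another scale, trend, centring, filters on rows, a replicate block and leaving out libraries.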

Additional observations from a re-analysis of the deposited data

Results flagged for a closer look

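In 89 called genes, all libraries of one knockdown lay above the range of the 3 shControl libraries and all of the other lay below it. Over all 12091 tested genes, shSF3B4 lay below and shU2AF2 above in 99, and the reverse held in 81. The 8 of them with the largest differences are given here. The difference of the knockdowns, shSF3B4 minus shU2AF2, was 0.48 in IMMP2L, −0.5 in MTHFSD, −0.49 in SLC9A7, −0.62 in AL391834.1, −0.605 in AC117503.4, −0.52 in AL161668.3, −0.52 in NOS1AP and −0.465 in AC117503.2. Each difference passed at an adjusted p under 0.05 as a contrast in limma. The genes were drawn from those called, so this was fixed by the choice and adds no support. The last exons of AL161668.3, AC117503.4, AL391834.1, AC117503.2 and NOS1AP overlap other genes, so reads may be shared. AL161668.3 and AC117503.4 kept their calls in all 4 fits that left out one of the compared libraries, and the other 6 lost theirs in 2 to 4 of them.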

How the results depend on the processing

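Of 497 called genes, 319 of them by at least 0.1 PDUI, no call remained with only the 4 compared libraries in the fit (0 and 0, at 1867 genes with an unadjusted p under 0.05, where the fit of all libraries had 1832). Centring gave 188 and 186, the logit scale 394 and 255, no variance trend 413 and 298, and omitting overlapping last exons, which leaves 9054 genes to test, gave 334 and 210. Without shControl replicate 1 the counts were 505 and 324. Leaving out 1 of the 4 libraries gave 263 to 343 and 177 to 243. Same-numbered libraries of shSF3B4 and shU2AF2 did not deviate together (r = −0.0251 across genes). This value cannot decide whether the numbers mark a shared batch, since the numbering of the shSF3B4 replicates is uncertain. The replicate block gave 364 and 242, with 332 of the 497 among them. Mean PDUI differed by −0.005 to 0.0036 without 1 library. The uncalled difference in U2AF2, −0.01, ranged from −0.045 without shU2AF2 replicate 1 to 0.025, a turn of direction, without replicate 2, and no called named gene turned direction. Of 65 called named genes, 31 kept their calls in all 4 fits that left out a library, 23 lost them with centring and 17 on the logit scale. The cause was not tested. Depth is unknown, so what it limits cannot be given.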
